A study of Brachypodium distachyon with 20 samples.

Results

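A set of 100 Brachypodium genes was examined whose transcripts were lower in late than in early endosperm while being higher in late than in earlier embryos. The samples are hand-dissected tissues from grains of *Brachypodium distachyon*, all of the ecotype Bd21 with no treatment compared, from emasculated and hand-pollinated flowers of plants kept in long days, with 2 libraries in each of 10 groups. The groups are seed coat (SEC), embryos at the 2-cell to quadrant (TCQ), pro-embryo (PEM), transition (TRA), leaf early (LEE), leaf middle (LEM), leaf late (LEL) and mature (MAT) stages, late endosperm (LEN) and early endosperm (EEN). In the study, EEN was taken from grains with TRA embryos, and both LEN and SEC from grains with LEL embryos, so the endosperm and the embryo were compared over about the same interval. Every library is a pool of embryos or grains, and SEC is the part of the grain left after embryo and endosperm had been taken out by hand. Levels are given as log2 CPM, the log2 of the authors' CPM (scaled counts). A difference between 2 groups is given as the difference of their log2 CPM means. The CPM of the libraries did not sum to a common total. The sums were 777864 and 739963 in the LEL libraries, against 1028082 and 1084752 in the TRA libraries. Rescaling to a common total was not tested. Of the 23749 genes with a value, 9174 had a mean of at least 3 log2 CPM in both EEN and LEL. For these the decrease in LEN relative to EEN and the increase in LEL relative to TRA were taken, the genes were ranked by the smaller of both sizes, and the first 100 were kept. The EEN, LEN, TRA and LEL values therefore chose the genes and are described here without a test. The TCQ, PEM, LEE, LEM, MAT and SEC libraries took no part in the choice, and members are tested between these groups only.

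The endosperm of grasses is the tissue that feeds the embryo and later the seedling. It starts as a syncytium, forms cell walls, and then fills with starch, storage protein and, in Brachypodium, thick wall polysaccharide, while its cells cease to divide. The embryo meanwhile forms the scutellum, the organ that later takes up the endosperm reserves, together with the shoot and root axis, and in its last stages prepares for desiccation and germination. The endosperm and the embryo both arise from fertilization, whereas the seed coat is a maternal tissue. The sources used here pair the identifier of only 1 member with a gene family, so the members are described by their profiles. That member is Bradi5g25767.1, which, as read from the picture of the study's phylogenetic tree, lies in the family of auxin response factors (ARF), transcription factors that bind auxin-responsive promoters, beside ARF8 of Arabidopsis.

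The number of reads behind a value is unknown, since only the authors' normalized values were used. The library medians over the 22902 genes tested ran from 2.71 to 3.15 log2 CPM, and the 50 most abundant genes held 9.73% to 20.2% of the summed CPM, with 16.3% and 18.9% in the LEN libraries and 11.8% and 9.73% in the EEN libraries. Over the 100 members, the median gap between both libraries of a group was 0.116 to 0.293 log2 CPM, the widest in EEN. The study calls its pools biological replicates, but it is not stated that both pools of a group came from separate plantings. The p-values therefore cover the spread of these libraries only, part of which may be technical. In bulk tissue, fewer cells of a type and less RNA per cell cannot be told apart.

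The members are the far end of a broader group of genes with opposite differences in endosperm and embryo. Of the 9174 genes, 1980 (21.6%) were lower in LEN than in EEN and higher in LEL than in TRA by any amount. Over the 100 members, LEN minus EEN ran from -6.27 to -1.11 with a median of -1.78, and LEL minus TRA ran from 1.11 to 6.61 with a median of 1.68. The ends of -6.27 and 6.61 belong to Bradi1g34000.1, which was at a floor in LEN and TRA, so both depend on where that floor lies. The medians over the 9174 genes were -0.15 and -0.05. Both sizes were at least 2 log2, a factor of 4, in 16 members and at least 3 log2 in 5. The endosperm difference was the smaller one in 47 members and the embryo difference in 53. Both LEN libraries lay below both EEN libraries in 100 members, as they did in 37.4% of all genes tested and 47.8% of the 9174. Both LEL libraries lay above both TRA libraries in 100 members, against 41.5% of all genes tested and 43.1% of the 9174. By limma, 30.9% of all genes tested were lower in LEN than in EEN and 34.3% higher in LEL than in TRA. The choice used these values, so nothing is read from the members' counts.

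**Figure D1:**
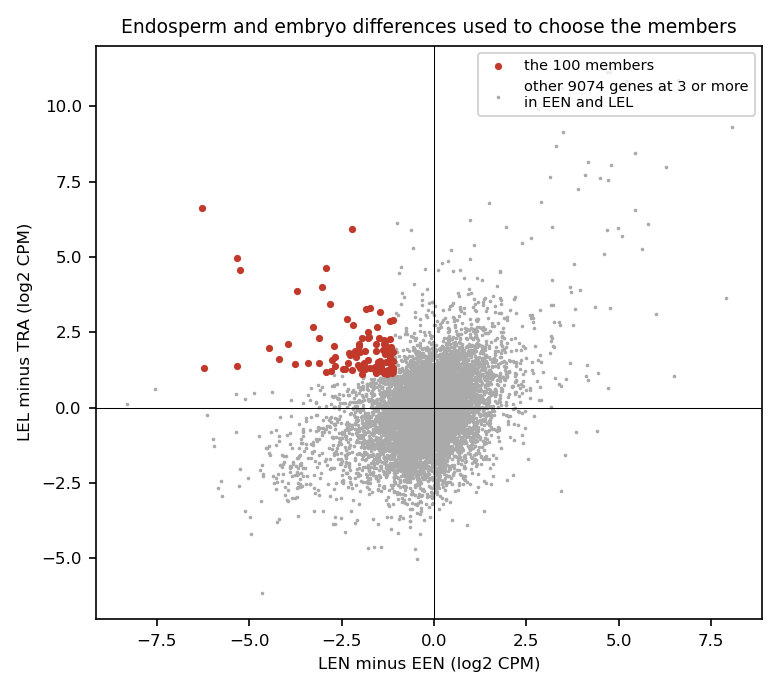
LEN minus EEN (horizontal, log2 CPM) against LEL minus TRA (vertical, log2 CPM) for the 9174 genes with means of at least 3 log2 CPM in EEN and LEL. The members (red) fill the upper left corner, with LEN minus EEN of -1.11 or less and LEL minus TRA of 1.11 or more, and the other genes (grey) are centred near 0.

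The edge of the set was not a gap. Bradi4g24280.3, the last member, had means of 3.99 in LEN and 5.94 in EEN, and of 6.51 in LEL and 5.40 in TRA, so that its smaller difference was 1.106. The first gene outside, Bradi2g48830.1, had means of 2.58 in LEN and 3.77 in EEN, and of 6.22 in LEL and 5.12 in TRA, with a smaller difference of 1.105. Of the 100 members, 81 were kept when replicate 2 of each group was used alone and 81 when replicate 1 was.

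The first member by rank, Bradi1g34000.1, was either near 1 level or at a floor. It was at 5.38 and 5.32 log2 CPM in the LEL libraries and at -1.26 in both TRA libraries. In endosperm it was listed at -1.26 in both LEN libraries, against 4.79 and 5.22 in the EEN libraries. The same value of -1.26 was listed in both TCQ and both PEM libraries and in SEC replicate 1, while SEC replicate 2 had 2.92. This recurring lowest value is the floor of the gene, below which nothing can be read. The sizes of its differences from groups at the floor are therefore not known, and its rank depends on where the floor lies. It was the 1 member with such a shared floor. From LEE on it was detected in every embryo library, at 5.58 and 4.79 in LEE and at 6.03 and 5.68 in MAT. LEE was above PEM with an adjusted p of 1.1e-05 (limma), and LEM did not differ detectably from LEE (0.04, SE 0.80, adjusted p = 0.98).

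The next members were graded. Bradi1g77335.1, the second by rank, was at 3.76 and 3.61 in LEL and at -1.55 and -0.98 in TRA, and at -1.70 and -0.98 in LEN against 4.37 and 3.60 in EEN. Its SEC libraries held 4.85 and 5.14, above all other libraries of the gene. Bradi1g78340.2, the third, was at 5.85 and 5.51 in LEL and 1.24 and 0.97 in TRA, and at -0.84 and -0.73 in LEN against 4.75 and 4.18 in EEN. It too was highest in SEC, at 7.60 and 7.89. For both genes the EEN, LEL and SEC libraries were all far above those of LEN and TRA.

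Tissue carried along at dissection would bring its abundant transcripts with it. Among the 3209 genes of at least 64 CPM in SEC, the 50th lowest ratio of a library's level to the SEC level was 0.0876% and 0.0840% in the LEN libraries, against 0.0802% and 0.0712% in the EEN libraries. It was 0.0637% and 0.0638% in the LEL libraries, against 0.239% and 0.279% in the TRA libraries. For the genes of at least 64 CPM in EEN it was 0.143% and 0.148% in LEL, against 0.260% and 0.249% in TRA. For the genes of at least 64 CPM in LEN it was 0.131% and 0.153% in LEL, against 0.0561% and 0.0580% in TRA. The ratios to SEC and to EEN were thus higher in TRA than in LEL, and those to LEN were lower. If the higher of both ratios were the carried share, RNA from SEC would make up at most 1.13% of the EEN level of a member. It would make up at most 1.28% of the LEL level, and RNA from EEN at most 6.80% of the LEL level. Such shares were not worked out for LEN and TRA. The rank and the minimum were chosen after the data were examined, and the part of carried RNA in the members' levels was not tested. Lists of tissue markers were not made, since the identifiers were not paired with names. The labelled tissues were therefore not checked against markers here, and other cell types in the pools were not tested. The study itself examined endosperm and seed coat genes, such as glutelins and cellulose synthases, and concluded that contamination of its embryo samples was minimal.

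Among the 5 embryo stages that the choice did not use, the median over the members was lowest at PEM, highest at LEM and lower again at MAT. The median of the 100 means was 3.92 for TCQ embryos, 3.39 for PEM, 3.52 for TRA and 4.03 for LEE, followed by 5.23 for LEM, 5.40 for LEL and 4.88 for MAT. It was 4.98 in SEC, and 3.20 in LEN against 4.97 in EEN. The choice asked for LEL above TRA and EEN above LEN, so the order within these pairs was set by it. Over the 5 unused stages, 57 members had their highest mean at LEM, 35 at MAT and 8 at TCQ, and 42 had their lowest at TCQ and 35 at PEM. Of the 9174 genes, 15.5% were highest at LEM and 36.3% at MAT, and 25.3% were lowest at TCQ and 20.7% at PEM. The share of members highest at MAT was thus near that of the 9174. Of 1221 genes with an embryo gain of the same minimum but a smaller endosperm fall, or none, 34.1% were lowest at TCQ and 47.1% at PEM. All 100 members differed among these 5 stages (limma F-test, adjusted p under 0.05), where 92.9% of all genes tested and 98.1% of the 9174 did, so the count says little about the members.

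**Figure D2:**
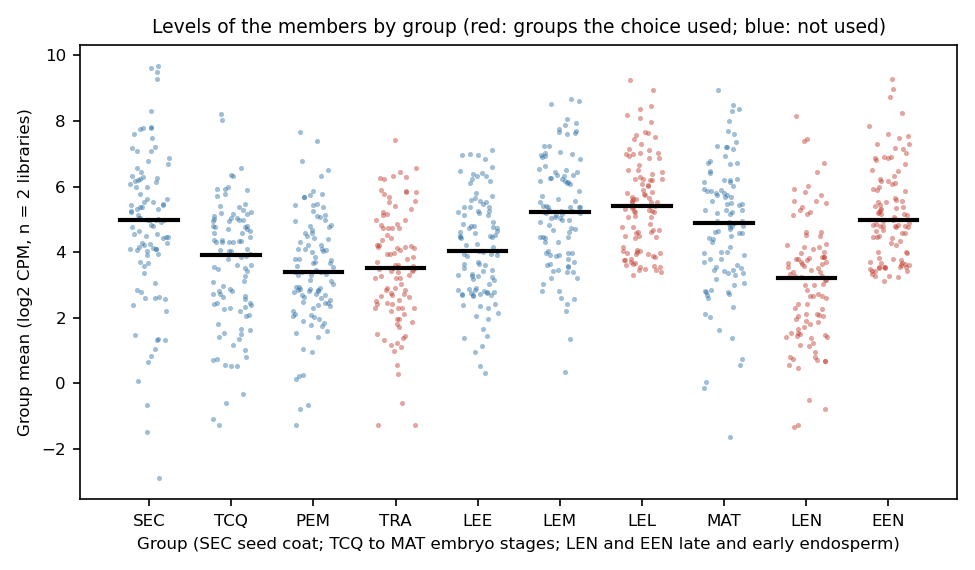
Mean log2 CPM of each member (points, mean of 2 libraries) in the 10 groups, with the median over the 100 members as a bar. The medians are lowest in LEN (3.20), PEM (3.39) and TRA (3.52) and highest in LEL (5.40) and LEM (5.23). The choice asked for LEL above TRA and EEN above LEN.

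Among the steps between embryo stages that the choice did not use, LEE to LEM had the largest median rise. Of the 100 members, 89 were higher in LEM than in LEE, where 25% of all genes tested and 32.3% of the 9174 genes at the minimum were. The median change of the members was 1.07 log2, against -0.04 over all genes tested, and 54 members rose by more than 1 log2. Over the 9174 genes the upper quartile of this change was 0.47 log2, and 95% of them had a change below 1.14. Both stages lie between TRA and LEL, so a rise in this step is close to what the choice asked for, although its libraries were not used. Bradi1g78340.2 had 6.61 and 6.26 in LEM and 2.30 and 2.29 in LEE, a rise of 4.14 (SE 0.22, adjusted p = 2.3e-09 from limma). Bradi1g50090.1 had 8.76 and 8.56 in LEM and 5.33 and 5.14 in LEE, a rise of 3.43 (SE 0.11, adjusted p = 2.3e-11). The libraries of LEM lay above those of LEE in each of the 89 genes. 

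Only 2 members were lower in LEM than in LEE, against 26.9% of all genes tested and 30.2% of the 9174. Bradi3g37551.1 had 0.54 and 0.13 in LEM and 2.28 and 2.43 in LEE, a change of -2.02 (SE 0.28, adjusted p = 3.2e-05 from limma). It then reached 3.87 and 3.63 in LEL and 5.99 and 5.61 in MAT, and held 8.08 and 8.23 in LEN against 9.59 and 8.95 in EEN. The LEM level of this gene was thus the lowest of all groups, and both endosperm groups were above every embryo stage. Bradi3g22590.2 had 1.91 and 0.78 in LEM and 2.54 and 2.81 in LEE (change -1.33, SE 0.36, adjusted p = 0.0064), and its call was lost without LEM replicate 2 (-0.77, adjusted p = 0.12) and without LEE replicate 2 (-1.20, adjusted p = 0.052). For 9 members LEM and LEE did not pass the test, with changes from 0.00 in Bradi5g27260.1 to 0.66 in Bradi1g05774.1.

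In the first step of the embryo the members went both ways, as other genes did. In PEM 29 were higher than in TCQ and 39 lower, against 28.7% and 24.6% of all genes tested and 33.1% and 29.5% of the 9174, with a median change of -0.20 log2 against 0.05. Among the risers Bradi2g09600.1 had 2.86 and 2.84 in PEM and 0.43 and 0.61 in TCQ, a rise of 2.33 (SE 0.16, adjusted p = 5.3e-08 from limma). Bradi1g05774.1 had 2.49 and 3.04 in PEM, with TCQ libraries far apart at -3.31 and 1.10 (change 3.87, SE 0.83, adjusted p = 0.0012). Its PEM libraries were above both TCQ libraries, but the size of this change rests on TCQ replicate 1.

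Among the members that fell at this step, Bradi3g27870.1 had 2.90 in both PEM libraries, against 5.70 and 5.83 in TCQ, a change of -2.87 (SE 0.10, adjusted p = 1.3e-10 from limma). It was back at 4.99 and 4.94 in TRA, so that PEM was the lowest group of this gene. Bradi1g77335.1 had 0.08 and 0.16 in PEM and 2.36 and 2.05 in TCQ (change -2.09, SE 0.33, adjusted p = 9.8e-05). It was lower still in TRA, as given above, before its gain towards LEL. Members of both directions were later higher in LEM than in LEE, in libraries that the first step does not share. These were 28 of the 29 that had risen in PEM, where 26.0% of the genes at the minimum that rose did so. Of the 39 that had fallen in PEM it was 35, against 36.8% of the genes at the minimum that fell. Of the other 32 it was 26, against 34.2%. The choice asked for a gain from TRA to LEL, which spans LEE to LEM, so high shares were close to set in advance. Of 1221 genes with an embryo gain of the same minimum but a smaller endosperm fall, or none, 85.6% rose from LEE to LEM.

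In LEE 62 members were higher than in PEM and 17 lower, against 24.3% and 24.9% of all genes tested and 31.2% and 23% of the 9174. This step spans TRA, where the choice asked for levels below those in LEL, so a rise is not independent of the choice. Of the 1221 genes with an embryo gain of the same minimum but a smaller endosperm fall, or none, 52.7% rose at this step and 10.1% fell. The median change of the members was 0.68 log2, against 0.00 over all genes tested, and 32 members rose by more than 1 log2. Of the 9174 genes, 95% had a change below 0.995 log2. Bradi1g52050.1 had 4.99 and 4.73 in LEE and 1.08 and 0.81 in PEM, a rise of 3.92 (SE 0.23, adjusted p = 4.4e-09 from limma). Bradi1g52050.1 went on to 7.56 and 6.88 in LEM and was down to 1.70 and 1.56 in MAT. Among the 17 lower members, Bradi2g60548.1 had 1.14 and 1.10 in LEE and 4.04 and 4.12 in PEM (change -2.96, SE 0.18, adjusted p = 8.8e-09). Bradi5g12120.1 had 2.02 and 1.88 in LEE and 4.25 and 4.18 in PEM (change -2.26, SE 0.21, adjusted p = 5.4e-07), was still at 2.48 and 1.92 in LEM, and had 4.82 and 4.43 in LEL. Bradi2g60548.1 was at 2.51 and 2.62 in LEM. The LEM libraries of Bradi2g60548.1 were thus above its LEE libraries, whereas those of Bradi5g12120.1 overlapped with its LEE libraries.

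Between LEM and MAT the members again went both ways. In MAT 28 members were higher than in LEM and 48 lower, against 31.3% and 33% of all genes tested and 37.1% and 37.8% of the 9174, with a median change of -0.26 log2 against 0.00. By more than 1 log2, 27 members fell. Over the 9174 genes the lower quartile of this change was -0.73 log2, and 5% of them had a change below -2.36. With the library medians set equal, 32 members were higher and 40 lower. The median over the members in MAT (4.88) was still above that in LEE (4.03). Bradi1g78340.2 had -1.43 and -1.89 in MAT and 6.61 and 6.26 in LEM, a change of -8.09 (SE 0.22, adjusted p = 2.4e-13 from limma). Its MAT values lie below 1 CPM, so this size depends on the scale, and it was -6.05 on the log2(CPM + 1) scale. Bradi1g50090.1 had 2.72 and 2.68 in MAT and 8.76 and 8.56 in LEM (change -5.96, SE 0.11, adjusted p = 2.2e-14). Both genes that rose most from LEE to LEM thus fell most from LEM to MAT, and in MAT they were below every earlier embryo stage.

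Other members went on rising. Bradi3g37551.1 had 5.99 and 5.61 in MAT and 0.54 and 0.13 in LEM, a rise of 5.46 (SE 0.28, adjusted p = 2e-10 from limma) that started from its trough. Bradi5g20997.3 had 7.54 and 7.68 in MAT and 4.42 and 4.43 in LEM, a rise of 3.19 (SE 0.11, adjusted p = 2.4e-12). It was between 4.13 and 4.51 in every library from TCQ to LEM and at 5.60 and 5.62 in LEL, so its gain came late.

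Genes with an embryo gain of the same minimum but a smaller endosperm fall, or none, are given for comparison. There were 1221 genes at the minimum whose LEL minus TRA was at least that of the last member (1.106 log2) while the endosperm fall was below this size or absent. They are called embryo gain only, and the reverse list endosperm fall only, although the other difference can be present at a smaller size. From LEE to LEM, 85.6% of these rose, beside 89 of the 100 members. From LEM to MAT, 74.4% of them rose and 8.93% fell, beside 28 and 48 of the 100 members, and their median change was 1.00 log2 beside -0.26. Their highest unused stage was MAT in 83.6% and LEM in 13.6%, beside 35 and 57 of the members. The 1246 genes with an endosperm fall of at least 1.106 log2 but an embryo gain below this size, or none, mostly fell from LEM to MAT (74.7%, median change -1.19). The members thus lay between both lists at this step. These are shares of lists chosen on the same libraries, and the differences between lists were not tested.

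The members were split between higher and lower levels in seed coat, in shares near those of the 9174 genes. In SEC 34 members were higher than in LEM and 53 lower, against 37.9% and 38.5% of all genes tested and 31.7% and 50.1% of the 9174. The median change of the members was -0.52 log2, against 0.00 over all genes tested and -0.31 over the 9174. Bradi3g22590.2 had 7.73 and 7.83 in SEC and 1.91 and 0.78 in LEM, a difference of 6.43 (SE 0.36, adjusted p = 2e-10 from limma). Bradi5g27260.1 had 7.53 and 7.43 in SEC and 3.30 and 2.77 in LEM (difference 4.44, SE 0.19, adjusted p = 6.1e-12). In this gene SEC was above every endosperm and embryo library.

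At the other end, Bradi1g64480.1 had -3.48 and -2.33 in SEC and 3.90 and 3.36 in LEM (difference -6.54, SE 0.33, adjusted p = 6e-11 from limma). Bradi5g24090.1 had -1.44 and -1.56 in SEC and 4.61 and 4.77 in LEM (difference -6.19, SE 0.24, adjusted p = 3.1e-12). Both were below 1 CPM in seed coat, so the sizes of these differences depend on the scale. On the log2(CPM + 1) scale they were -3.55 for Bradi1g64480.1 and -4.31 for Bradi5g24090.1. SEC was the highest of all 10 groups in 23 members, beside 14.5% of the 9174 genes at the minimum, 16.2% of the genes with the embryo gain only and 10.5% of those with the endosperm fall only. Whether these shares differ was not tested.

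**Figure D3:**
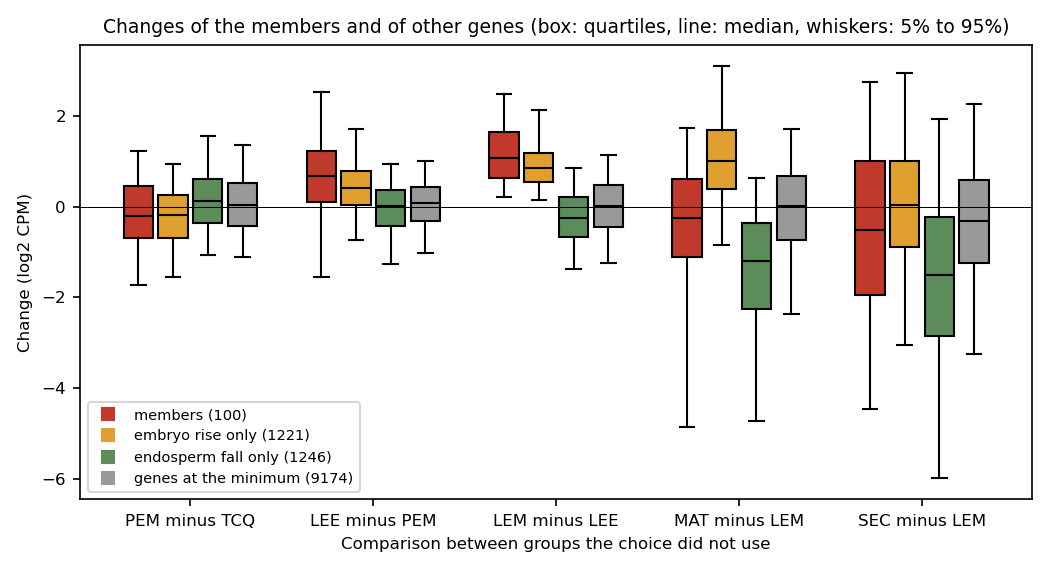
Changes in log2 CPM between groups that the choice did not use, for the 100 members, the 1221 genes with the embryo gain only, the 1246 with the endosperm fall only and the 9174 genes with means of at least 3 log2 CPM in EEN and LEL (boxes: quartiles, lines: medians, whiskers: 5% to 95% of genes). From LEE to LEM the members (median 1.07) lie with the genes of the embryo gain only, and from LEM to MAT (median -0.26) they lie between both other lists.

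The ARF gene Bradi5g25767.1 was the 16th member by rank. It had 1.53 and 1.26 log2 CPM in LEN against 3.49 and 3.34 in EEN, and 5.10 and 5.41 in LEL against 3.13 and 3.28 in TRA. LEN was thus its lowest group and LEL its highest. In the libraries that the choice did not use, it was lower in PEM than in TCQ (2.66 and 2.74 in PEM, 3.27 and 3.59 in TCQ, change -0.73, SE 0.15, adjusted p = 0.00068 from limma). It was higher in LEE than in PEM (4.14 and 3.93 in LEE, change 1.33, adjusted p = 3.5e-06). At 4.38 and 4.52 in LEM and 5.01 and 4.89 in MAT it stayed up, unlike the members that fell after LEM. The change from LEE to LEM was 0.42 (adjusted p = 0.028), but 0.34 (adjusted p = 0.070) with the library medians set equal. The difference of SEC (4.89 and 4.73) from LEM was 0.36 (adjusted p = 0.038), but 0.20 (adjusted p = 0.23) with the medians equal. These calls, and that of MAT against LEM (0.50, adjusted p = 0.0080), were also lost when some single libraries were left out, the last to 0.44 (adjusted p = 0.057) without MAT replicate 1 and to 0.43 (adjusted p = 0.062) without LEM replicate 1.

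**Figure D4:**
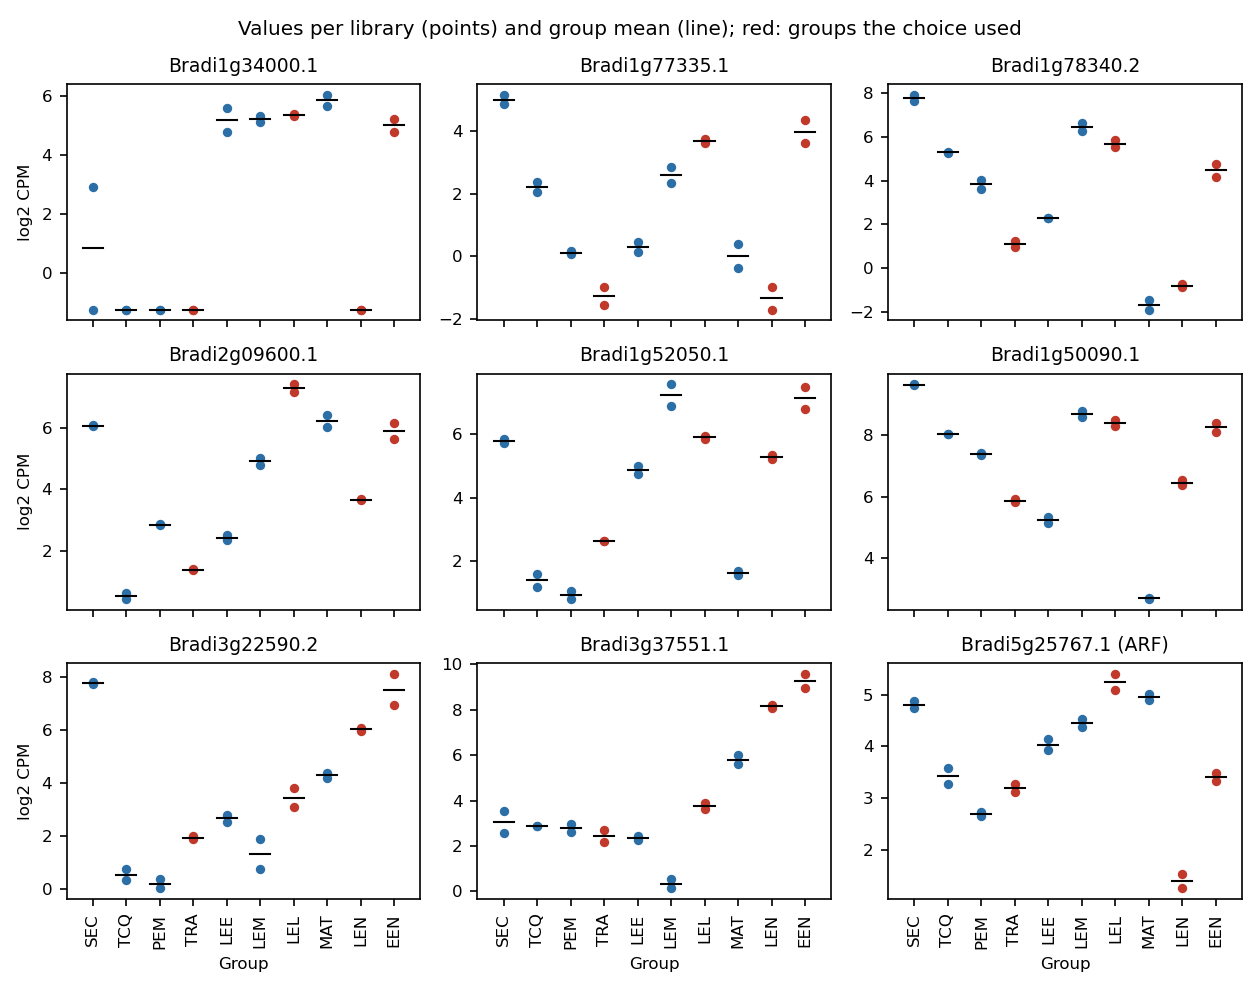
Log2 CPM of 9 named members in each library (points) with group means (lines), on a vertical axis of its own for each gene. Bradi1g34000.1 is at -1.26, or at 4.79 and higher, but for SEC replicate 2 (2.92), Bradi1g78340.2 and Bradi1g50090.1 are lowest in MAT, and the ARF gene Bradi5g25767.1 is lowest in LEN and highest in LEL.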

How the data were processed

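RNA-seq values of 20 libraries in 10 groups were used, each group with 2 libraries matched to samples by column name. Poly(A) RNA was linearly amplified before library construction, which can alter relative levels. The submitters' notes list CASAVA, Trimmomatic and Salmon, and the authors deposited log2 CPM values per gene model of Bd21. How these were scaled between libraries is not given in the sources used here. Depth and counting error are therefore unknown.

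The deposited log2 values were tested with limma 3.58.1 in R 4.3.3, in 1 fit of all 20 libraries with a mean for each group, no covariates and moderated variances with a trend (residual degrees of freedom 10, prior 4.82). The test covered 22902 genes that exceeded 0 log2 CPM in 2 or more libraries and varied, and left out 847. All 100 members passed this filter through their EEN and LEL libraries, which the choice set at 3 or more. P-values were adjusted by Benjamini-Hochberg over all genes tested and called at 0.05. The procedure was tested on simulated data.

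The members, contrasts and lists were chosen with earlier results of these data known. The named genes are the first and last member by rank, the first gene outside, and for each contrast at most 2 identifiers in each direction with the largest change among called members whose libraries do not overlap. Bradi5g25767.1 was added for its family, and any other name was chosen after its values were seen. The reference table of 31335 genes matched 0 identifiers, so the gene lists and tissue markers planned from descriptions were not made, and no sequence is shown. The comparison lists with the embryo gain only or the endosperm fall only, and the ratios for carried RNA, were added after the data were examined.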

Additional observations from a re-analysis of the deposited data

How the results depend on the processing

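The set itself depends on its definition. Of the 100 members, 68 were kept with a minimum of 2 log2 CPM, 63 with a minimum of 4, 84 with the library medians set equal, 97 on the log2(CPM + 1) scale, 81 without replicate 1 and 81 without replicate 2, and 45 when genes were ranked by the sum of both differences. The library medians differed by -0.19 log2 for MAT minus LEM and by 0.16 for SEC minus LEM, and setting them equal moved the counts to 32 higher and 40 lower in MAT and 33 higher and 56 lower in SEC. With single libraries left out, the members called ran from 54 to 57 for PEM against TCQ, 67 to 77 for LEE against PEM, 81 to 89 for LEM against LEE, 67 to 72 for MAT against LEM and 84 to 86 for SEC against LEM, and those lower in LEM than in LEE from 1 to 2. In these fits the lone library of a group is assumed to vary like the other groups. Same-numbered replicates were not treated as pairs, since the labels give only a number and the correlation of replicate differences was over 0.1 in 15 of 45 pairs of groups and not in all (from -0.13 to 0.55, below 0 in 8), so a replicate effect shared by some groups is possible. With the replicate number as a block, 90 members were higher in LEM than in LEE and 2 lower. No named gene reversed its direction where it was called, and all other counts stayed within 1.5 times their value under the filters, scales, variance models and fits tried. Unknown depth limits what can be read from values near a floor.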

Other observations

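By the chromosome number in their identifiers, 39 members lay on chromosome 1, 16 on chromosome 2, 21 on chromosome 3, 10 on chromosome 4 and 14 on chromosome 5. Of the genes at the minimum of 3 log2 CPM in EEN and LEL, 31.0%, 22.7%, 23.4%, 14.4% and 8.48% lie on these chromosomes. Whether the members are spread otherwise was not tested. By the order of the identifiers, 8 pairs of members had at most 9 measured genes between them, and none were direct neighbours among the measured genes. The highest ranked of these pairs are the members of ranks 3 and 4, Bradi1g78340.2 and Bradi1g78400.1, a pair singled out after its values were seen, with 4 measured genes between them, of which 1 was also lower in LEN than in EEN and higher in LEL than in TRA. Bradi1g78400.1 had means of 0.57 log2 CPM in LEN against 4.28 in EEN, and of 5.56 in LEL against 1.70 in TRA (n = 2 each). The genes parted at maturity, where Bradi1g78400.1 was at 4.18 and 3.82 in MAT against 5.29 and 5.04 in LEM, while Bradi1g78340.2 was at -1.43 and -1.89 in MAT. Whether such near genes share reads was not tested.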
